A study of Mus musculus with 4 samples.

Results

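The genes described here are 10 collagen-modifying enzymes and chaperones, taken by name from the 18298 mouse genes that had a read in any sample: *P4ha1*, *P4ha2*, *P4hb*, *Plod1*, *Plod2*, *Plod3*, *Serpinh1*, *Crtap*, *Lox* and *Loxl2*. The rule is a list of names and holds no threshold on a measured value, although the list was drawn up with earlier results of these data known. Their messenger RNA was measured by RNA sequencing in primary rib chondrocytes, the matrix-producing cells of cartilage, on a C57BL/6 background. The Senp6-Mut group had 2 samples of the genotype Dermo1-Cre;Senp6f/f and the WT group had 2 samples of the genotype Senp6f/f. The WT cells therefore carried the floxed *Senp6* alleles as well and lacked the Dermo1-Cre allele. All cells came from embryos at E18.5 and were cultured to passage 1. *Senp6* encodes a protease that removes SUMO chains from proteins, and Dermo1-Cre is expressed from the *Twist2* locus in mesenchymal progenitors of the skeleton, so a culture can also hold cells in which the alleles were not recombined. The labels do not say whether a sample is 1 embryo or a pool, and the p values below measure only the spread between these samples.

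Fibrillar collagen is made as procollagen chains in the endoplasmic reticulum. Prolyl 4-hydroxylase, a complex of catalytic alpha subunits and the beta subunit P4HB, hydroxylates prolines and so makes the triple helix stable at body temperature, while the lysyl hydroxylases PLOD1, PLOD2 and PLOD3 modify lysines that later carry sugars and crosslinks. CRTAP belongs to the complex that 3-hydroxylates selected prolines, and SERPINH1 (HSP47) is the collagen-specific chaperone that binds the folded helix. After secretion the lysyl oxidases, here LOX and LOXL2, oxidise lysines and hydroxylysines and start the crosslinks of the fibril. Loss of several of these proteins causes brittle bone or connective tissue disease, and chondrocytes depend on them for the type II collagen network of cartilage.

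The 14123 genes tested held between 21007449 and 30983806 reads per sample. RPKM, the depth-scaled number of reads per kilobase of gene, was 0.238 for a 2 kb gene with 10 counts in the shallowest sample. The distance between samples over log2(RPKM + 1) of 11737 genes was 39.5 for the WT pair and 25.0 for the Senp6-Mut pair. WT replicate 2 was closer to Senp6-Mut replicate 1, at 33.0, than to WT replicate 1, and about as far from Senp6-Mut replicate 2, at 39.4, as from WT replicate 1. Where leaving out a sample changed the call or the direction of a named gene, that value is given beside it. *Xist* had 11354 counts in Senp6-Mut replicate 2 and at most 5 in the other samples. *Ddx3y*, a gene of the Y chromosome, had 3 counts in that sample. It had 818 and 1150 in the WT samples and 1601 in Senp6-Mut replicate 1. Senp6-Mut replicate 2 thus had a female pattern of transcripts and the other samples a male one. Sex was unbalanced between the genotypes and differed within the Senp6-Mut pair, and its part in the values was not tested. *Senp6*, the targeted gene, had 1125 and 2326 counts in the WT samples and 1839 and 1126 in the Senp6-Mut samples. The groups overlapped, with an estimate of -0.56 ± 0.28 (log2 fold change ± standard error) and an edgeR adjusted p of 0.410, which ranged from -0.89 to -0.20 with 1 sample left out, and a count over the whole gene does not show the deleted exons, so it did not check the labels. Among the chondrocyte markers, the defining genes *Col2a1* and *Sox9* were present in every sample, *Sox9* at an RPKM of 45.6 and 31.3 in WT and 24.7 and 23.1 in Senp6-Mut. In these bulk samples, fewer cells of a type and less RNA per cell cannot be told apart.

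The comparison of Senp6-Mut with WT asked which of the 10 genes differed between the genotypes. None of the 10 differed past an adjusted p of 0.05 in the quasi-likelihood test of edgeR, where 0% of the 14123 genes tested were called in either direction. None of the 10 had an unadjusted p under 0.05 either, against 9.29% of all genes higher and 6.28% lower in Senp6-Mut, and the smallest unadjusted p was 0.10, that of *Serpinh1*. DESeq2, which called 3.3% of the 13301 genes with an adjusted p higher and 2.01% lower, called none of the 10, with adjusted p between 0.402 and 0.976. Without the filter, where 1.23% and 0.333% of genes were called higher and lower, and with the replicate number in the fit, where these shares were 0.595% and 0.234%, none of the 10 was called. The same held without WT replicate 1 (3.55% and 0.999% of genes called), without Senp6-Mut replicate 1 (1.98% and 0.634%) and without Senp6-Mut replicate 2 (0.496% and 0.27%). The estimates lay between -0.34 for *Serpinh1* and 0.17 for *Loxl2* on the log2 scale, with 2 above 0 and 8 below. Their median was -0.16, beside a median of 0.0097 over all genes, and the median size of the change without its sign was 0.18 beside 0.20 over all genes.

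Counting samples in place of p values, 5 of the 10 genes were lower in both Senp6-Mut samples than in both WT samples on the scale of TMM-scaled counts, namely *P4ha2*, *P4hb*, *Plod3*, *Serpinh1* and *Crtap*, and the same 5 were lower on the RPKM scale. Of all genes tested, 22.8% were lower in this way and 25.4% were higher. None of the 10 was higher in both Senp6-Mut samples. An exact permutation test of 2 samples against 2 cannot give a two-sided p below 0.333, so no such test was made for single genes. For the 10 genes, the median difference in log2 RPKM was 0.18 within the WT pair, 0.18 within the Senp6-Mut pair and 0.14 between the means of the genotypes. The difference between genotypes exceeded the difference within both pairs for 2 of the 10, and the share of all genes that did so was not taken. A difference between means of 2 samples varies less than a difference between single samples, so these sizes are a description.

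The 10 genes were all abundant transcripts, with 1178 to 102553 counts each and 88.2% to 100% of the gene length covered. On the RPKM scale their lowest percentile in any sample was 82.08, ranked over all 18298 genes that had a read in any sample. Together they took 0.963% and 0.836% of the reads in the WT samples and 0.851% and 0.747% in the Senp6-Mut samples, and none was near the filter on low counts. In order of the RPKM, *Serpinh1* was the highest of the 10 in every sample, followed by *P4hb* and *Lox*, while *P4ha1* and *P4ha2* were the lowest. In this order the ranges over the 4 samples overlapped for the neighbours *Plod3* and *Loxl2*, *Plod1* and *Plod2*, and *P4ha1* and *P4ha2*, and for no other neighbours.

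**Figure D1:**
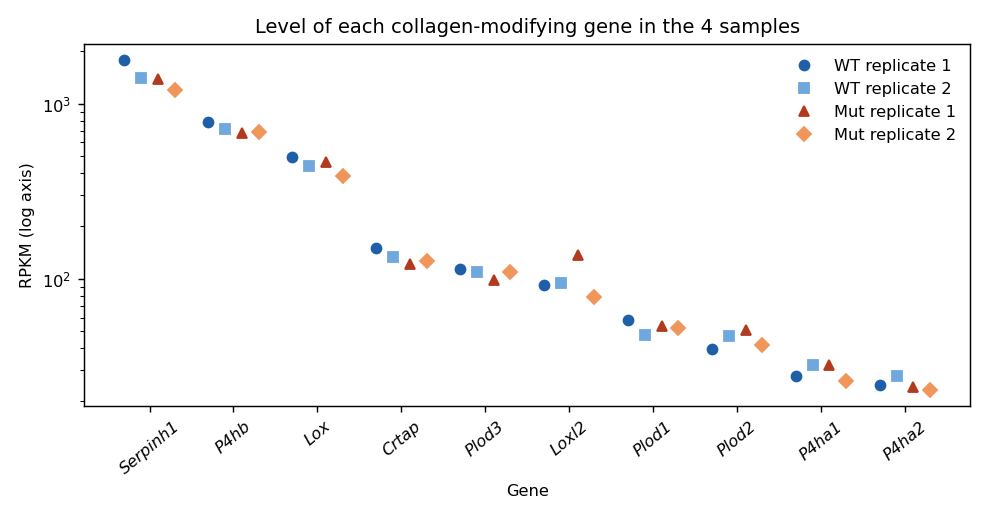
RPKM of the 10 genes (log axis) in WT replicates 1 and 2 (blue) and Senp6-Mut replicates 1 and 2 (red and orange), 1 point per sample, with genes in order of their level. The points of the genotypes lie close to each other for every gene, and *Loxl2* is the gene whose Senp6-Mut samples lie farthest apart, at 137.2 and 79.0.

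The promoters of 4 of the genes that were lower in both Senp6-Mut samples, all but *Plod3*, are shown so that the control regions can be read beside their values. Each run is the 250 bases before the transcription start in RefSeq, build GRCm38.p6, written 5′ to 3′ on the strand of the gene. Capitals mark the hypoxia core, ACGTG or GCGTG, found on either strand (as CACGT or CACGC on the other).
Serpinh1, chr7:99353240-99353489, minus strand: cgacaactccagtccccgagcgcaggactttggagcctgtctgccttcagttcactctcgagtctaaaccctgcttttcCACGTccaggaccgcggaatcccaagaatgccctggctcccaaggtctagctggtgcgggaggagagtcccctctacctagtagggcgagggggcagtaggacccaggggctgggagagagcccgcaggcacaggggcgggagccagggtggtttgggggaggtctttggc
Crtap, chr9:114390713-114390962, minus strand: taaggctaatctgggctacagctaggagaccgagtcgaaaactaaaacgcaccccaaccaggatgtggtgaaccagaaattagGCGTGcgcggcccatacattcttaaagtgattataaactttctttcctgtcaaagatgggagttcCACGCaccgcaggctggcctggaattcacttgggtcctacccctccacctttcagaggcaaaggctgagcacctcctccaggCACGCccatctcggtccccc
P4hb, chr11:120573254-120573503, minus strand: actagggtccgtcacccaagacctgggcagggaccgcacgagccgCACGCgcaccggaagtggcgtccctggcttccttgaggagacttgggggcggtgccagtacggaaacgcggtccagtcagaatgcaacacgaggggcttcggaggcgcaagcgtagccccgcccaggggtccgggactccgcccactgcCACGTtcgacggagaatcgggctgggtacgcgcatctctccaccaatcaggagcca
P4ha2, chr11:54100674-54100923, plus strand: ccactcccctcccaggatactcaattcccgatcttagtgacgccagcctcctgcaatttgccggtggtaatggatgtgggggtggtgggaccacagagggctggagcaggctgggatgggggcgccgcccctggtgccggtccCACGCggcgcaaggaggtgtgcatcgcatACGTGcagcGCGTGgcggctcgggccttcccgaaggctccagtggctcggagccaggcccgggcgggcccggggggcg
Windows were found for 7 of the 10 genes, all but *Plod2*, *Lox* and *Loxl2*. A core ACGTG was present in 5 of the 7 and in 16.6% of 32851 windows of the same length, and GCGTG in 6 of the 7 and in 28.2% of the windows. At least 1 of these cores, the letters at the centre of the element bound by hypoxia-inducible factors, was present in all 7 and in 38.6% of the windows. The 7 windows had a GC content of 53.6% to 70%, with a median of 63.6%, beside a median of 52.4% over all windows. A GC box, GGGCGG on either strand, was present in 5 of the 7 and in 32.7% of the windows. The CCAAT box was present in 2 of the 7 and in 33.8% of the windows, the heat shock core GAANNTTC in 0 of the 7 and in 6.69%, and the endoplasmic reticulum stress element in 0 of the 7 and in 0.113%. All motifs were searched on both strands, and the stress element holds a CCAAT box within it. The RefSeq start of *P4ha2* lies inside the gene as GENCODE places it, and so does the window shown for it. These matches describe the letters of the windows and are not binding sites.

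Prolyl 4-hydroxylase was represented by 3 genes, and all 3 estimates were below 0 without passing the test. *P4ha1* (GRCm38 chr10:59323296-59373304, plus strand) encodes the main catalytic alpha subunit in most tissues. Its RPKM was 27.8 and 32.0 in WT and 32.2 and 26.0 in Senp6-Mut, so the Senp6-Mut samples lay at either side of the WT samples. Its log2 fold change was -0.075 ± 0.16 (standard error), with a 95% interval of -0.45 to 0.30 (edgeR adjusted p = 0.868), and it turned to 0.093 without Senp6-Mut replicate 2. *P4ha2* (chr11:54100095-54131665, plus strand), the alpha subunit known from cartilage and bone, had an RPKM of 24.5 and 27.9 in WT and 24.01 and 23.25 in Senp6-Mut. Both Senp6-Mut samples were below both WT samples, by 0.53 RPKM at the nearest pair, and the log2 fold change was -0.19 ± 0.13, with an interval of -0.50 to 0.12 (edgeR adjusted p = 0.553).

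*P4hb* (chr11:120560298-120573253, minus strand) encodes the beta subunit, which is also protein disulfide isomerase and serves many proteins of the endoplasmic reticulum besides collagen. Its RPKM was 787.8 and 720.2 in WT and 683.1 and 686.0 in Senp6-Mut, the Senp6-Mut samples lying close together and below both WT samples. Senp6-Mut against WT gave a log2 fold change of -0.18 ± 0.13, with an interval of -0.50 to 0.14 (edgeR adjusted p = 0.577). *P4hb* stood far above its catalytic partners on the per-length scale. The ratio of *P4hb* to the summed *P4ha1* and *P4ha2* was 15.1 and 12.0 in WT and 12.1 and 13.9 in Senp6-Mut, which overlapped. Within the sum of the alpha subunits *P4ha1* and *P4ha2*, the share of *P4ha1* was 53.1% and 53.4% in WT and 57.3% and 52.8% in Senp6-Mut, a difference of 1.81 percentage points that was carried by Senp6-Mut replicate 1.

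The lysyl hydroxylases *Plod1* and *Plod2* gave estimates close to 0. *Plod1* (chr4:147909753-147936767, minus strand) hydroxylates lysines of the helix and had an RPKM of 58.1 and 47.5 in WT and 53.4 and 52.6 in Senp6-Mut, both Senp6-Mut samples falling between the WT samples. The log2 fold change was -0.039 ± 0.15, with an interval of -0.41 to 0.33 (edgeR adjusted p = 0.929), and it turned to 0.14 without WT replicate 1. *Plod2* (chr9:92542223-92608428, plus strand) hydroxylates the telopeptide lysines that make the stable crosslinks of bone and cartilage. Its RPKM was 39.6 and 46.9 in WT and 50.7 and 41.6 in Senp6-Mut, again overlapping. This gave a log2 fold change of 0.054 ± 0.16, with an interval of -0.32 to 0.43 (edgeR adjusted p = 0.908), and it turned to -0.041 without WT replicate 1 and to -0.11 without Senp6-Mut replicate 1.

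*Plod3* (chr5:136987019-136996648, plus strand) hydroxylates lysines and also transfers the sugars onto hydroxylysine. It was the most abundant of the 3 per length, with an RPKM of 113.0 and 109.4 in WT and 98.0 and 108.8 in Senp6-Mut. The groups did not overlap, but Senp6-Mut replicate 2 was only 0.54 RPKM below WT replicate 2. Its log2 fold change was -0.15 ± 0.13, with an interval of -0.45 to 0.15 (edgeR adjusted p = 0.639). *Plod3* overlaps *Znhit1* on the other strand, and as the strand setting of the counting is not given in the sources used here, reads of the overlap could have been counted for either gene. Within the family, *Plod3* took 53.6% and 53.7% of the summed RPKM in WT and 48.5% and 53.6% in Senp6-Mut, *Plod1* took 27.6%, 23.3%, 26.4% and 25.9% in the same order of samples, and *Plod2* took the rest. The shares of *Plod1* and *Plod2* overlapped between the genotypes, and that of *Plod3* was separated by 0.010 percentage points at the nearest pair of samples.

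**Figure D2:**
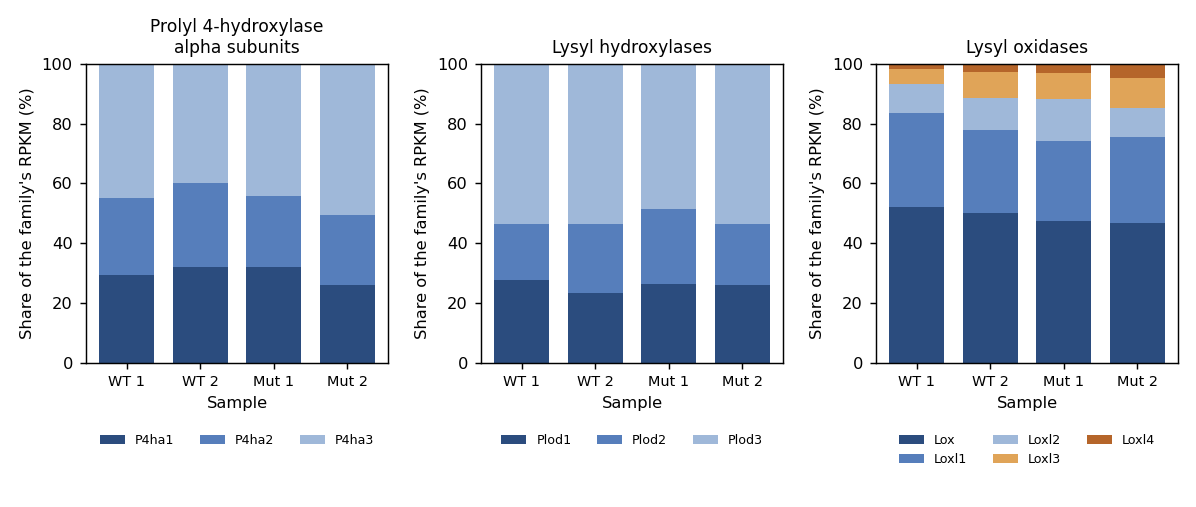
Share of the summed RPKM (%) that each gene took within the prolyl 4-hydroxylase alpha subunits (left), the lysyl hydroxylases (middle) and the lysyl oxidases (right), 1 stacked bar per sample. In the middle panel *Plod3* is the largest share in every sample, and those of *Plod1* and *Plod2* differ more within the WT pair than between the genotype means. In the right panel *Loxl3* and *Loxl4* take a larger share in both Senp6-Mut samples than in both WT samples, and both are named for their large estimates.

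The chaperone *Serpinh1* and the helper *Crtap* had the lowest estimates of the 10. *Serpinh1* (chr7:99345376-99353239, minus strand) had an RPKM of 1763 and 1398 in WT and 1379 and 1194 in Senp6-Mut. Both Senp6-Mut samples were below both WT samples, but WT replicate 2 and Senp6-Mut replicate 1 were nearly equal, and the means were 1581 ± 258 and 1286 ± 131 (SD, n = 2 each). The log2 fold change was -0.34 ± 0.18, with an interval of -0.77 to 0.087 (edgeR adjusted p = 0.430), or a fold of 0.789 with an interval of 0.586 to 1.06. It was the only gene of the 10 that passed the test in any alternative. Without WT replicate 2 its estimate was -0.55 with an edgeR adjusted p of 0.0303, in a fit that called 9.25% of 14010 genes higher and 10.3% lower, and without WT replicate 1 it was -0.14 with an adjusted p of 0.766.

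*Crtap* (chr9:114375134-114390675, minus strand) had an RPKM of 150.2 and 132.4 in WT and 121.3 and 125.8 in Senp6-Mut. The Senp6-Mut samples were below both WT samples, and the log2 fold change was -0.24 ± 0.14, with an interval of -0.56 to 0.086 (edgeR adjusted p = 0.467). The annotation places the transcript *4930520O04Rik* on the other strand over part of *Crtap*, with the same limit on strand as for *Plod3*. CRTAP works in a complex with the prolyl 3-hydroxylase P3H1 and cyclophilin B, the product of *Ppib*. *P3h1*, listed under its older symbol *Lepre1*, had an RPKM of 107.2 and 85.3 in WT and 72.4 and 67.4 in Senp6-Mut, with a log2 fold change of -0.51 ± 0.16 (edgeR adjusted p = 0.217), and passed only without WT replicate 2, at -0.71 (edgeR adjusted p = 0.00336). *Ppib*, chosen here after its values were seen, had an RPKM of 243.7 and 187.9 in WT and 162.4 and 178.7 in Senp6-Mut, with a log2 fold change of -0.39 ± 0.17 (edgeR adjusted p = 0.346). Each of the 3 was lower in both Senp6-Mut samples than in both WT samples, as 22.8% of all genes were, and none passed the test with all samples. *P3h1* is named for its large estimate, so this count is a description.

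The crosslinking oxidases pointed in opposite directions. *Lox*, on chromosome 18, encodes the main lysyl oxidase of fibrillar collagen. Its RPKM was 495.7 and 439.0 in WT and 465.5 and 386.1 in Senp6-Mut, and the groups overlapped because Senp6-Mut replicate 1 was above WT replicate 2. The log2 fold change was -0.18 ± 0.16, with an interval of -0.57 to 0.21 (edgeR adjusted p = 0.663). *Loxl2* (chr14:69609068-69695834, plus strand), an oxidase that acts on type IV collagen and elastin as well, had the widest spread of the 10. Its RPKM was 92.5 and 94.3 in WT and 137.2 and 79.0 in Senp6-Mut, so that 1 Senp6-Mut sample was above and the other below the WT pair. Over both samples the log2 fold change was 0.17 ± 0.26, with an interval of -0.45 to 0.79 (edgeR adjusted p = 0.806). It was -0.30 without Senp6-Mut replicate 1 and 0.54 without Senp6-Mut replicate 2, so its direction rested on a single sample. Antisense transcripts are annotated over *Lox* and *Loxl2*, and their reads could not be told apart from those of the genes without strand.

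**Figure D3:**
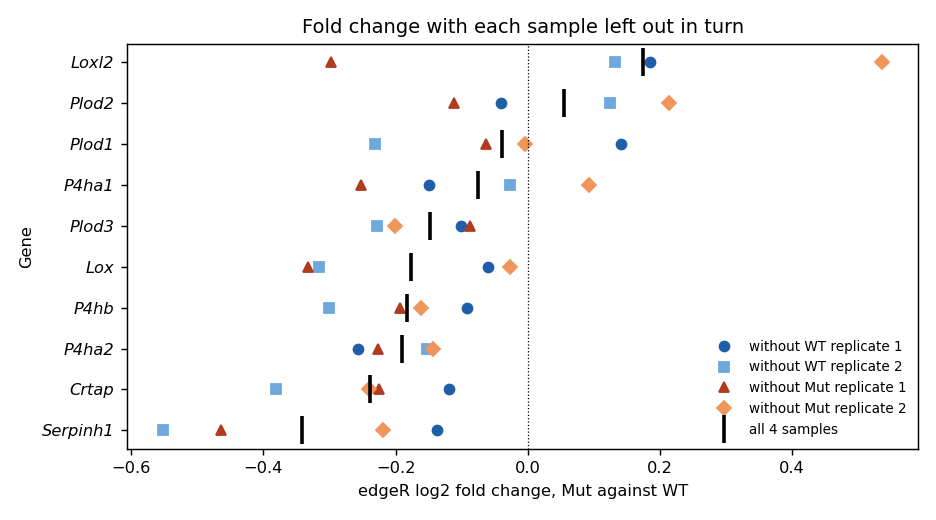
edgeR log2 fold change of each of the 10 genes, Senp6-Mut against WT, with all 4 samples (black bars) and with each sample left out in turn (points). *Serpinh1*, *Crtap*, *P4ha2*, *P4hb*, *Lox* and *Plod3* keep all points below 0, while the points of *P4ha1*, *Plod1*, *Plod2* and *Loxl2* lie on both sides of 0.

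The widths of the 95% intervals set what differences these samples could have missed. The fold of Senp6-Mut over WT was bounded between 0.706 and 1.10 for *P4hb*, between 0.732 and 1.11 for *Plod3* and between 0.677 and 1.06 for *Crtap*, whereas that of *Loxl2* was bounded only between 0.734 and 1.73. The intervals of all 10 genes included a fold of 1.

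Other genes of collagen processing were read from the same fit, as a list of 28 that holds further hydroxylases, foldases, secretion factors, procollagen proteases and oxidases. All 28 were tested and none passed in edgeR. At an unadjusted edgeR p under 0.05, 2 were higher and 2 lower, beside 9.29% and 6.28% of all genes. The median log2 fold change was -0.17, with 7 estimates above 0 and 21 below, so it was close to the median of the 10 genes. On the scale of TMM-scaled counts 6 were higher and 10 lower in both Senp6-Mut samples than in both WT samples, beside 25.4% and 22.8% of all genes. The largest estimate was that of *Tll1*, a procollagen C-proteinase of the BMP1 family, with an RPKM of 1.22 and 2.21 in WT and 5.43 and 5.56 in Senp6-Mut. Its estimate on the log2 scale was 1.64 ± 0.27 (edgeR adjusted p = 0.0833), and it passed with DESeq2 (adjusted p = 5.18e-06). With 1 sample left out the estimate was 1.29 to 2.08. The oxidase *Loxl4* had an RPKM of 16.0 and 25.2 in WT and 30.4 and 38.7 in Senp6-Mut, with a log2 fold change of 0.71 ± 0.22 (edgeR adjusted p = 0.202), and it passed with DESeq2 (adjusted p = 0.0470) and, at 1.01, without WT replicate 2 (edgeR adjusted p = 0.00176). These were the only genes of the 28 that DESeq2 called, beside 3.3% of all genes called higher and 2.01% lower.

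The related oxidase *Loxl3* had an RPKM of 48.9 and 74.5 in WT and 85.8 and 84.1 in Senp6-Mut, with a log2 fold change of 0.42 ± 0.19 (edgeR adjusted p = 0.363). It passed only without WT replicate 2, at 0.70 (edgeR adjusted p = 0.00436), and was 0.17 without WT replicate 1. Within the summed RPKM of the 5 lysyl oxidases, the share of *Lox* was 52.1% and 50.1% in WT and 47.4% and 46.7% in Senp6-Mut, the share of *Loxl3* was 5.14% and 8.51% against 8.74% and 10.2%, and the share of *Loxl4* was 1.68% and 2.88% against 3.10% and 4.68%. For these 3 oxidases the shares did not overlap, although *Loxl3* and *Loxl4* came close to it between WT replicate 2 and Senp6-Mut replicate 1. *Loxl3* and *Loxl4* are named for their large estimates, and the shares of a family depend on each other, so this count is a description. The share of *Loxl2*, at 9.72% and 10.8% in WT and 13.98% and 9.55% in Senp6-Mut, overlapped.

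In the other direction *Colgalt2*, a collagen galactosyltransferase, had only 42 and 25 counts in WT and 11 and 17 in Senp6-Mut, with a log2 fold change of -1.66 ± 0.55 (edgeR adjusted p = 0.221), and passed only without WT replicate 2, at -2.16 (edgeR adjusted p = 0.0121). *Creb3l1*, a transcription factor of the endoplasmic reticulum that drives collagen secretion in bone, had an RPKM of 140.1 and 123.5 in WT and 118.4 and 84.8 in Senp6-Mut, with a log2 fold change of -0.42 ± 0.20 (edgeR adjusted p = 0.380), and between -0.69 and -0.17 with 1 sample left out. Both genes were lower in both Senp6-Mut samples than in both WT samples, as 22.8% of all genes were on the scale of TMM-scaled counts. They are named for their large negative estimates, so this count is a description.

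**Figure D4:**
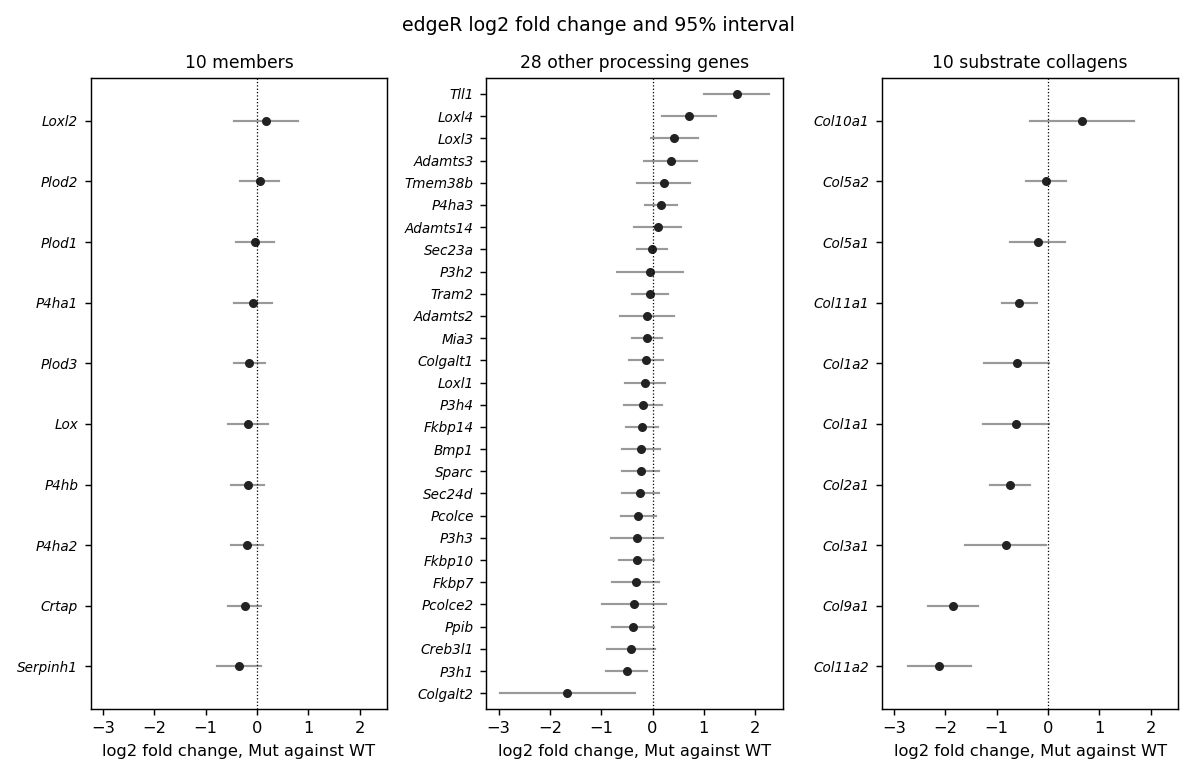
edgeR log2 fold change, Senp6-Mut against WT, with its 95% interval for the 10 genes (left), the 28 other genes of collagen processing (middle) and 10 collagen genes that these proteins act on (right). The estimates on the left lie within -0.34 and 0.17, those of the collagens range from -2.12 to 0.65, and no gene passed an adjusted p of 0.05.

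The collagens on which these proteins act had a median log2 fold change of -0.62, beside -0.16 for the 10 enzymes and chaperones, and ranged from -2.12 for *Col11a2* to 0.65 for *Col10a1*. Of 10 collagen genes tested, none passed in edgeR. In the lower direction 5 had an unadjusted p under 0.05, beside 6.28% of all genes, and DESeq2 called 4, beside 2.01%. With the replicate number in the fit 2 were called lower, beside 0.234% of all genes. These were *Col9a1* (edgeR adjusted p = 0.0365) and *Col11a2* (edgeR adjusted p = 0.0396), named after their values were seen. Both Senp6-Mut samples were below both WT samples for 7 of the 10 collagens, beside 22.8% of all genes. *Col1a1*, the type I collagen chain and the most abundant substrate, had an RPKM of 7253 and 4961 in WT and 4828 and 3311 in Senp6-Mut, with a log2 fold change of -0.63 ± 0.27 (edgeR adjusted p = 0.332). It passed only without WT replicate 2, at -0.93 (edgeR adjusted p = 0.0415), and was -0.30 without WT replicate 1 and -0.36 without Senp6-Mut replicate 2. *Col2a1*, the collagen of cartilage, had 609.0 and 659.2 in WT and 333.5 and 445.3 in Senp6-Mut, with a log2 fold change of -0.75 ± 0.16 (edgeR adjusted p = 0.114). It passed with DESeq2 (adjusted p = 0.00112), without WT replicate 1 (-0.78, edgeR adjusted p = 0.0266) and without WT replicate 2 (-0.75, edgeR adjusted p = 0.0135). *Col3a1*, a collagen of fibroblasts and perichondrium, had 1417 and 934.0 in WT and 872.4 and 491.9 in Senp6-Mut, with a log2 fold change of -0.83 ± 0.33 (edgeR adjusted p = 0.290), and passed only without Senp6-Mut replicate 1, at -1.32 (edgeR adjusted p = 0.00718).

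The enzymes and chaperones were then set against these substrates. The summed RPKM of the 10 genes was 3552 and 3048 in WT and 3044 and 2723 in Senp6-Mut, a log2 difference of the means of -0.19. The summed RPKM of the 10 collagens was 13292 and 9329 in WT and 8798 and 6369 in Senp6-Mut, a log2 difference of -0.58. The amount of enzyme and chaperone transcript per 100 RPKM of collagen was therefore 26.7 and 32.7 in WT and 34.6 and 42.8 in Senp6-Mut, or 29.7 ± 4.204 against 38.7 ± 5.762 (SD, n = 2 each). Both Senp6-Mut samples were above both WT samples, but the nearest samples differed by less than the WT pair did. Without *Col1a1* in the denominator the values were 58.8 and 69.8 in WT and 76.7 and 89.0 in Senp6-Mut. In every sample *Serpinh1*, *P4hb* and *Lox* made up most of the sum of the 10 genes. *Col1a1*, *Col1a2* and *Col3a1* made up most of the collagen sum, so the ratio of the sums mainly describes these genes. Taken gene by gene, 7 of the 10 had a higher ratio to collagen in both Senp6-Mut samples, and *P4ha2*, *Plod3* and *Crtap* overlapped. Of all genes tested, 59.9% had a higher ratio to the same collagen sum in both Senp6-Mut samples, so a count of this size is not particular to the 10. The 10 ratios share their denominator and are not independent of each other.

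**Figure D5:**
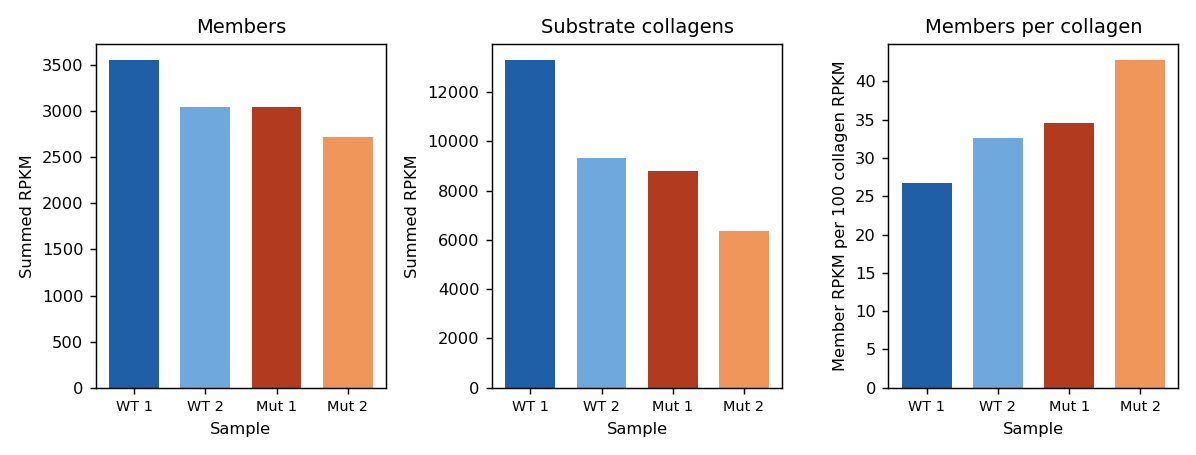
Summed RPKM of the 10 genes (left), summed RPKM of the 10 collagens (middle) and the former per 100 RPKM of the latter (right), 1 bar per sample with no error bar. Both sums are highest in WT replicate 1 and lowest in Senp6-Mut replicate 2, and the ratio runs the other way, from 26.7 to 42.8.

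Cell type markers were read in the same samples on the RPKM scale, and a gene is counted as lower or higher where both Senp6-Mut samples were below or above both WT samples, as for 22.8% and 25.4% of all genes on the TMM scale. The 16 chondrocyte markers summed to an RPKM of 929.1 to 932.6 in WT and 425.7 to 571.0 in Senp6-Mut, with 14 lower and 1 higher. The 9 fibroblast and perichondrium markers, which include *Col1a1* and *Col3a1*, summed to 6884 to 9790 in WT and 5148 to 6989 in Senp6-Mut, with 4 lower and 1 higher. The 11 skeletal muscle markers summed to 36.4 to 105.0 in WT and 172.4 to 192.5 in Senp6-Mut, with 8 higher and none lower. The 7 macrophage markers summed to 17.8 to 20.9 in WT and 8.13 to 11.4 in Senp6-Mut, with 5 lower. The 9 osteoblast markers summed to 496.7 to 551.1 in WT and 510.7 to 653.9 in Senp6-Mut, with 5 lower and 1 higher. The 1 that was higher, *Spp1*, made up most of this sum, at 310.1 and 467.7 in WT and 478.9 and 600.4 in Senp6-Mut. Among the 5 that were lower, *Alpl* had 90.1 and 45.7 in WT and 11.6 and 22.4 in Senp6-Mut. *Bglap*, the osteocalcin gene, was at 0 counts in WT replicate 1 and Senp6-Mut replicate 1. The 6 endothelial markers summed to 0.972 to 1.52 in WT and 0.954 to 1.15 in Senp6-Mut, with 1 higher (*Kdr*) and 1 lower (*Tek*), and with *Cldn5* at 0 counts in WT replicate 1. The part of these markers in the levels of the 10 genes and of the collagens was not tested.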

How the data were processed

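RNA of 2 Senp6-Mut and 2 WT samples of rib chondrocytes was sequenced by a service from poly(A) selected, fragmented RNA. The authors deposited raw read counts per gene, the RPKM, which scales a count by gene length and by all reads on genes, and a coverage value, the percent of each gene that reads touched. The submitters' processing notes name SAMtools and the build mm9, and the aligner, counting tool, annotation and strand setting are not given in the sources used here. Genes absent from a sample's list were given a count of 0. The test was edgeR 4.0.16 in R 4.3.3 (glmQLFTest, TMM, robust). It covered the 14123 genes that reached 10 counts in 2 or more samples, p values were adjusted by Benjamini-Hochberg over all of them, and TMM factors were between 0.966 and 1.03. RPKM was used only for levels, shares and sums. The WT replicates differed by far more than sampling noise, with a chi-square over its degrees of freedom of 48.6, as did the Senp6-Mut replicates at 23.7, so each was counted separately. The labels give no batch.

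The alternatives were DESeq2 1.42.0, edgeR with RLE size factors, edgeR without the filter or with 10 counts required in all samples, limma 3.58.1 (trend) on log2(RPKM + 1) and log2(RPKM + 0.1), a block for the replicate number, and fits that left out 1 sample. The 10 genes and all lists were chosen with earlier results of these data known. Named were all 10 genes, Senp6, *Col1a1*, *Col2a1* and *Col3a1*, and of the 28 other genes those past the threshold and the 3 largest estimates in each direction. Gene positions are from GENCODE M21 on GRCm38 and promoter sequences from RefSeq on GRCm38.p6, and no coordinate on mm9 was used.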

Additional observations from a re-analysis of the deposited data

How the results depend on the processing

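Over all genes, edgeR called 0, DESeq2 called 706, edgeR without the filter 286, and leaving out 1 sample between 105 and 2740, the last without WT replicate 2, where the lone WT sample is assumed to vary like the others. RLE size factors, at least 10 counts in every sample and limma gave 0. Of the 28 other genes of collagen processing DESeq2 called 2, the fit without the filter 1, and leaving out 1 sample between 1 and 10, the last again without WT replicate 2. Of the 10 enzymes and chaperones none was called except *Serpinh1* without WT replicate 2, so leaving out 1 sample gave 0 to 1. Of the 70 estimates for these 10 genes under the other alternatives, 68 kept their sign, and *Plod1* turned to 0.013 with limma on both log2(RPKM + 1) and log2(RPKM + 0.1). With 1 sample left out, 5 of the 40 estimates changed sign, within ranges of -0.25 to 0.093 for *P4ha1*, -0.23 to 0.14 for *Plod1*, -0.11 to 0.21 for *Plod2* and -0.30 to 0.54 for *Loxl2*. The labels do not say whether the replicate numbers pair the samples. The correlation of the replicate differences between genotypes was -0.062 across 11737 genes, and this single value cannot decide it. A replicate block gave 117 calls over all genes, 1 of the 28, *Tll1* (edgeR adjusted p = 0.0470), and none of the 10, whose adjusted p were between 0.382 and 0.966. The cause of these differences between fits was not tested. The 10 genes had at least 1178 counts in every sample, while *Colgalt2*, with 11 to 42 counts, was near the filter.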

Other observations

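Another alpha subunit of prolyl 4-hydroxylase, *P4ha3*, which was not among the 10 genes and was picked after its values were seen, was the most abundant alpha subunit per length in every sample. Its RPKM was 42.4 and 39.7 in WT and 44.7 and 50.3 in Senp6-Mut, higher in both Senp6-Mut samples, with a log2 fold change of 0.17 ± 0.13 (edgeR adjusted p = 0.610). It took 44.8% and 39.9% of the summed RPKM of the 3 alpha subunits in WT and 44.3% and 50.5% in Senp6-Mut, which overlapped. By read counts, which are not scaled by length, its share was 37.2% and 32.6% in WT and 36.3% and 42.8% in Senp6-Mut, below that of *P4ha1* in all samples but Senp6-Mut replicate 2. *Loxl1*, the oxidase of elastic fibres, was the runner-up of the lysyl oxidases behind *Lox*, with an RPKM of 298.8 and 242.5 in WT and 262.9 and 238.8 in Senp6-Mut and a log2 fold change of -0.15 ± 0.16 (edgeR adjusted p = 0.712).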
